A study of Homo sapiens with 4 samples.

Results

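The nuclear genes of oxidative phosphorylation encode most subunits of the 4 respiratory complexes and of ATP synthase, complex V, in the inner membrane of mitochondria. Complex I, complex III and complex IV pass electrons from NADH to oxygen and pump protons, complex II feeds in electrons from succinate, and complex V makes ATP from the proton gradient. The remaining subunits come from the mitochondrial genome. The genes were taken from the GENCODE v44 annotation as the protein-coding genes whose symbols begin with NDUF, UQCR, ATP5, COX4, COX5, COX6, COX7 or COX8, together with SDHA, SDHB, SDHC and SDHD. This gave 98 genes of 20046 protein-coding genes, of which 86 had a poly(A) site cluster (PAC) with its dominant site in their same-strand span in at least 1 library. All 86 passed the filter on level, a mean of at least 2 TPM, where TPM is the tags of a gene scaled to the total tags of its library. NDUFC2-KCTD14 and ATP5MF-PTCD1 are readthrough genes whose PACs are all PACs of NDUFC2 and ATP5MF, so 84 genes remained for descriptions of sites and sums. The genes held 111 of the 17627 PACs listed.

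PAS-seq reads mark where polyadenylated transcripts end. It was applied to KYSE30 and TE-1, established lines of human esophageal squamous cell carcinoma (ESCC). For each line there was 1 library of cells kept for 24 h with l-lactate at 20 mM and 1 library of cells given PBS, called control here. The question was whether l-lactate changes which poly(A) site is used. In the controls the titles name K30 and TE1 while the cell line field reads KYSE32 and TE-3, and the titles were followed here. With 1 library per line and treatment there was no repeat culture, so each test below measures the spread left after line and treatment were fitted, with 1 residual degree of freedom per gene moderated over all genes. The total was 7425554 tags in KYSE30 control, 7174991 in KYSE30 l-lactate, 10393799 in TE-1 control and 8468958 in TE-1 l-lactate, and the 86 genes each held 43 to 16543 tags per library. Since a transcript gives 1 tag at its 3′ end, TPM needed no correction for length, and less RNA per cell cannot be told apart from fewer cells with the RNA. Of 8 squamous markers, KRT6A and SOX2 were listed only in KYSE30, KRT17 was listed only in TE-1, and KRT5, KRT14, TP63, DSG3 and SFN were listed in neither. CDH1, an epithelial cadherin, was at 204 and 228 TPM in KYSE30. In TE-1 it was not listed in the control and was at 1.30 TPM with l-lactate. The other epithelial markers, EPCAM, KRT8 and KRT18, were listed in both lines and were lower in TE-1. In TE-1 they were at 30.7 and 36.4, 1004 and 969, and 175 and 166 TPM. Of 4 leukocyte markers, 0 were listed. The fibroblast markers COL1A1 and DCN were listed only in TE-1, at 7.12 TPM or less. The endothelial marker CDH5 was listed only in KYSE30, at 16.2 and 11.2 TPM.

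The 84 genes together took 2.68% of all tags in KYSE30 control, 2.74% in KYSE30 l-lactate, 3.06% in TE-1 control and 2.89% in TE-1 l-lactate. Their median mean level was 242 TPM, against 26.9 TPM over the 10299 protein-coding genes tested. The levels spanned a wide range within each complex. UQCRH, the hinge protein of complex III, was highest at 1491, 1543, 1592 and 1518 TPM in KYSE30 control, KYSE30 l-lactate, TE-1 control and TE-1 l-lactate, the order used for all values below. UQCRQ, another small subunit of complex III, stood at 843, 809, 1035 and 866 TPM. COX7C and COX7B, small structural subunits of complex IV, stood at 1225, 1341, 1396 and 1371 TPM and at 887, 980, 1134 and 1126 TPM. ATP5F1B, the catalytic beta subunit of ATP synthase, was at 1101, 1163, 1514 and 1443 TPM. In each of these the 4 libraries stayed within a narrow band beside the range of the complex, as the plot of levels by complex shows.

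**Figure D1:**
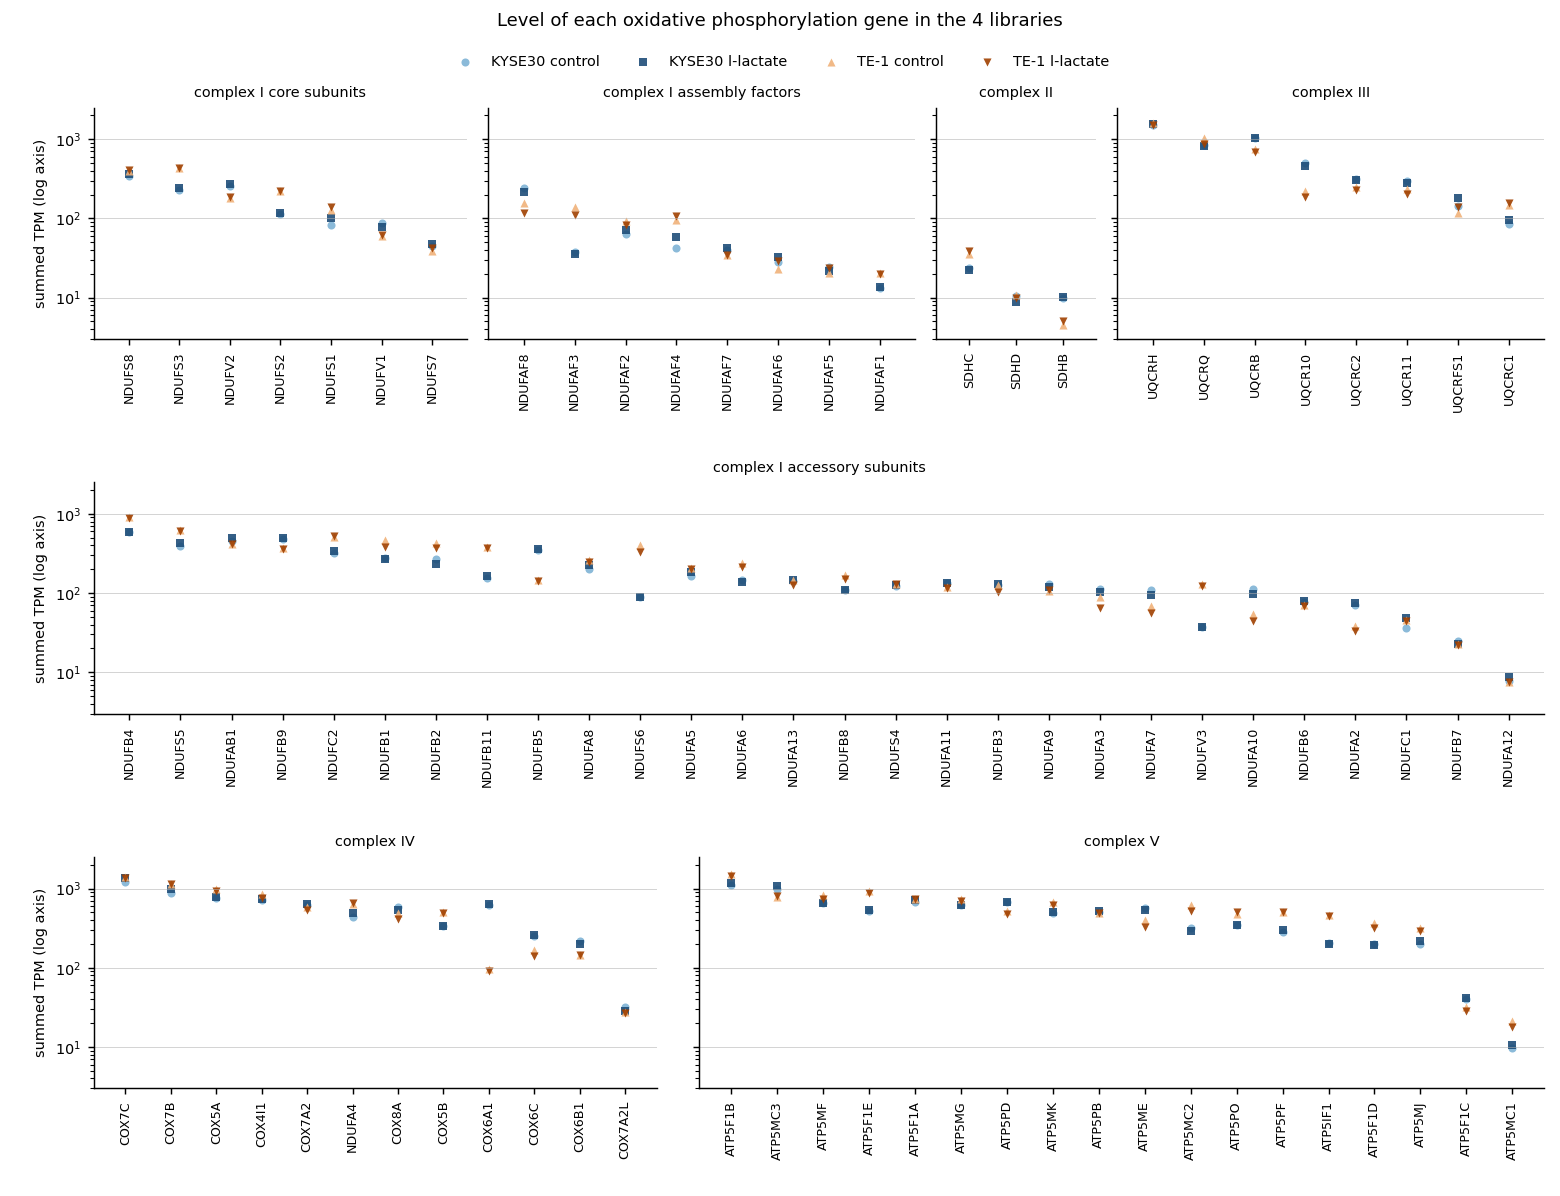
Summed TPM of each gene (log axis) in the 4 libraries, 1 point per library, grouped by complex and ordered by mean level. The 3 listed complex II genes lie below 40 TPM, and COX6A1, NDUFS6, NDUFV3 and NDUFAF3 show the widest gaps between the lines.

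Complex I genes were lower. The accessory subunits NDUFB4 (596, 598, 915 and 896 TPM) and NDUFS5 (396, 426, 628 and 616 TPM) led, and the core subunits, which carry the redox centres, were led by NDUFS8 at 345, 368, 398 and 405 TPM. NDUFS3 followed at 225, 238, 431 and 431 TPM, but 2 of its 3 PACs lie in the 3′ UTR of PTPMT1, a mitochondrial phosphatase gene inside the annotated span of NDUFS3. The PAC in the 3′ UTR of NDUFS3 itself was at 127, 131, 210 and 202 TPM. NDUFAB1, the mitochondrial acyl carrier protein, stood at 459, 494, 411 and 417 TPM. Of the assembly factors, which help build complex I and are not part of it, NDUFAF8 had the highest mean level, at 239, 217, 156 and 117 TPM, and NDUFAF3 stood at 37.4, 35.5, 139 and 112 TPM. Complex II was lowest: SDHC, a membrane anchor, was at 23.3, 22.4, 35.5 and 38.1 TPM. SDHD, the other anchor, was at 10.4, 8.78, 10.8 and 9.80 TPM. SDHB, the iron-sulfur subunit, was at 9.83, 10.04, 4.52 and 5.08 TPM, and SDHA, the flavoprotein subunit, had no PAC listed in its span.

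Several subunits exist as paralogs, some of them used mainly in muscle, testis or hypoxia. COX4I1 (721, 743, 846 and 771 TPM), COX6A1, COX6B1 (216, 201, 147 and 146 TPM), COX7A2 (627, 639, 580 and 536 TPM), COX7B, COX8A (592, 541, 493 and 413 TPM) and NDUFA4 (436, 492, 642 and 659 TPM) were listed. Their paralogs COX4I2, COX6A2, COX6B2, COX7A1, COX7B2, COX8C and NDUFA4L2 had no PAC in any library, and the same held for UQCRHL and ATP5MGL. The tables list only PACs above about 1.06 to 1.12 TPM, so a level under that would not appear. COX7A2L, which takes part in joining complexes III and IV, was at 32.1, 28.7, 27.7 and 26.8 TPM. NDUFA1 and NDUFB10 had no PAC inside their spans either, but each had a PAC just past the annotated end. The dominant site lay 4 nt past the end of NDUFA1 with 36.0, 38.0, 38.0 and 31.6 TPM, and 1 nt past the end of NDUFB10 with 188, 179, 208 and 201 TPM.

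ATP5MC1, ATP5MC2 and ATP5MC3 encode the same mature c-ring protein of ATP synthase from separate genes. ATP5MC3 stood at 985, 1068, 789 and 816 TPM, ATP5MC2 at 321, 288, 621 and 528 TPM and ATP5MC1 at 9.70, 10.7, 21.4 and 18.1 TPM. The order was the same in all 4 libraries, while ATP5MC3 was higher in KYSE30 and the other two were higher in TE-1, with log2 ratios of TE-1 over KYSE30 of -0.35 ± 0.06 (SE) for ATP5MC3, 0.91 ± 0.06 for ATP5MC2 and 0.88 ± 0.17 for ATP5MC1. The last 30 bases before the main site of each, from the GRCh38 reference, are shown to set the 3 ends side by side, with the poly(A) signal in capitals and the last base at the cleavage site. They are chr17:48895840-48895869 on the plus strand, chr12:53665176-53665205 on the minus strand and chr2:175178145-175178174 on the minus strand, all in the 3′ UTR.
ATP5MC1: agctttaccATTAAAcacaacgtttctcta
ATP5MC2: acagagaaaagacaAATAAAtactgtatta
ATP5MC3: aaagtcatttcATTAAAgatgaaaacttta
The ATP5MC2 signal is AATAAA and the other two carry the ATTAAA form.

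The 3′ ends of these genes were short and mostly lone. The main site, the PAC with the highest mean TPM, lay a median of 126.5 nt past the stop codon (quartiles 90 and 180 nt), against 781 nt (quartiles 320 and 1737 nt) over the 9295 genes tested in which this distance could be measured on the MANE Select transcript. At most 200 nt separated stop codon and main site in 69 of 84 genes (82.1%) and in 15.1% of all genes. NDUFA5, a small accessory subunit of complex I, had the longest distance, 1090 nt. A lone PAC was found in 63 of 84 genes, against 63.2% of all genes. The main site was in an annotated 3′ UTR in 82 of 84 genes (97.6%, all genes 92.1%), and in the other two, NDUFA11 and NDUFA13, it lay 1 nt past the end of the MANE Select transcript.

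**Figure D2:**
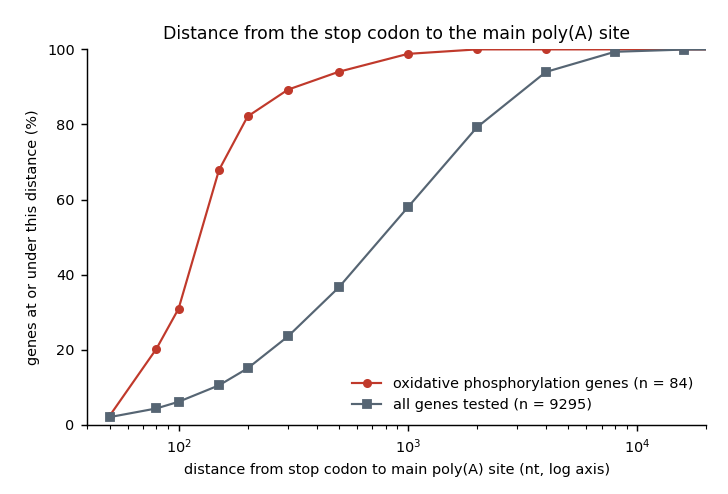
Cumulative percentage of genes (y axis) whose main poly(A) site lies at or under a given distance from the stop codon (x axis, log scale), for the 84 oxidative phosphorylation genes and for all genes tested with a measured distance. At 200 nt the curves stand at 82.1% and 15.1%.

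The signal AATAAA was present in the 50 nt before the main site, on the transcript strand, in 65 of 84 genes (77.4%, 95% Wilson interval 67.4 to 85.0%), against 71.0% of all genes. A further 17.9% carried ATTAAA and no AATAAA, against 15.7%, and 4.76% carried neither, against 13.3%. The 4 genes with neither were COX5B, NDUFAF3, NDUFAF8 and NDUFS1, which are named after their values were seen. TGTA, the letters bound by the cleavage factor subunit NUDT21 when written as RNA, occurred in the 100 nt before the main site in 57.1% of the 84 genes and 58.3% of all genes. A match is a match of letters only. The distance from the end of the signal to the site had a median of 16 nt in both sets. An A-rich stretch just downstream, which can prime falsely from the genome, followed 0 of the 84 main sites and 1.00% of all main sites. At least 1 named pseudogene existed for 50 of 84 genes (59.5%, all genes 15.8%), with 17 for COX6C and 12 each for NDUFB4 and NDUFA5, so tags of these genes could be shared with copies.

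Between the lines, 5 of the 86 genes were called higher in TE-1 and 5 higher in KYSE30 by limma with Benjamini-Hochberg adjustment over all 10299 genes, an adjusted p of at most 0.05 and a log2 ratio of at least 1 in size. Over all genes tested 16.8% were called higher in TE-1 and 19.3% higher in KYSE30, so calls were fewer among these genes. Their median level was 252 TPM, against 26.9 TPM over all genes, and the part of level in this was not tested. At any size an adjusted p of at most 0.05 was reached by 68 of 86 genes, 41 higher in TE-1 and 27 higher in KYSE30, against 72.9% of all genes, 35.8% higher in TE-1 and 37.1% higher in KYSE30. The median size of the log2 ratio was 0.47, against 0.68 over all genes. The sign was the same in the control and the l-lactate pair of libraries in 82 of 86 genes, against 9351 of 10299 genes over all.

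COX6A1, the form of subunit VIa found outside muscle, had the widest gap between the lines. It stood at 618 and 637 TPM in KYSE30 and at 95.73 and 89.98 TPM in TE-1, a log2 ratio of -2.74 ± 0.07 (SE; limma adjusted p = 6.37e-08), or 6.70-fold lower in TE-1. Its values did not overlap between the lines, which adds no support, since genes were called by the size of this gap. COX6A1 spans chr12:120438090-120440737 on the plus strand. All tags came from 1 PAC at chr12:120440723-120440747 on the plus strand, and its dominant site also stood 12 nt further downstream in TE-1. In KYSE30 the dominant site at base 120440730 held 74.2 and 75.6% of the tags of the PAC, while in TE-1 the site at base 120440742, past the annotated gene end at 120440737, held 30.3 and 32.2%. The 30 bases up to each site show how the ends overlap.
COX6A1 in KYSE30: gagatggcttaAATAAAtaacttaaattta
COX6A1 in TE-1: ataaataacttaaatttagattggtcatga
The same AATAAA, in capitals in the first, starts just before the second window. COX6A1 has 7 named pseudogenes, and its PAC also lies in an intron of a longer unnamed protein-coding gene, ENSG00000111780. Their part in the difference was not tested.

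The other genes called higher in KYSE30 were UQCR10 and 3 accessory subunits of complex I. NDUFB5 (chr3:179604690-179627647, plus strand) stood at 354 and 361 TPM in KYSE30 and 145 and 142 TPM in TE-1, a log2 ratio of -1.31 ± 0.07 (limma adjusted p = 1.29e-06). The PACs of NDUFB5 also lie in the span of another protein-coding gene, and which gene the tags came from was not tested. UQCR10 (chr22:29767369-29770413, plus strand), a small subunit of complex III, stood at 497 and 463 TPM against 224 and 185 TPM, a log2 ratio of -1.23 ± 0.07. Neither gene's values overlapped between the lines, which again largely follows from how genes were called. NDUFA10 (chr2:239892450-240025743, minus strand) stood at 112 and 97.8 TPM against 54.0 and 45.0 TPM (log2 ratio -1.07 ± 0.09). NDUFA2 (chr5:140638740-140647771, minus strand) stood at 70.8 and 74.1 TPM against 38.6 and 32.7 TPM (log2 ratio -1.01 ± 0.11). Both sat close to the size limit, and the log2 ratio of NDUFA2 was -0.93 with a pseudocount of 5, under the limit.

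Among the genes called higher in TE-1, NDUFS6 (chr5:1801407-1816048, plus strand), an accessory subunit of the NADH-binding module of complex I, stood at 88.5 and 88.1 TPM in KYSE30 and 405 and 334 TPM in TE-1. Its log2 ratio was 2.05 ± 0.08 (limma adjusted p = 4.56e-07), or 4.13-fold. NDUFAF3 (chr3:49020459-49023495, plus strand), an assembly factor, had a log2 ratio of 1.74 ± 0.10 (adjusted p = 2.06e-06, limma). That these 2 genes did not overlap between the lines largely follows from the call as well. Both were lower in TE-1 l-lactate than in TE-1 control. NDUFV3 (chr21:42879644-42913304, plus strand), a further accessory subunit of the NADH-binding module, stood at 37.4 and 37.6 TPM against 129 and 124 TPM, a log2 ratio of 1.72 ± 0.09. NDUFB11 (chrX:47142071-47145466, minus strand), an X-linked accessory subunit of the membrane arm, stood at 154 and 163 TPM against 381 and 372 TPM, a log2 ratio of 1.25 ± 0.07. ATP5IF1 (chr1:28236109-28246906, plus strand), the inhibitor that stops ATP synthase from running backwards, stood at 203 and 197 TPM against 459 and 448 TPM, a log2 ratio of 1.17 ± 0.06. In these 3 the treatment pairs of a line lay close together beside the gap between the lines.

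**Figure D3:**
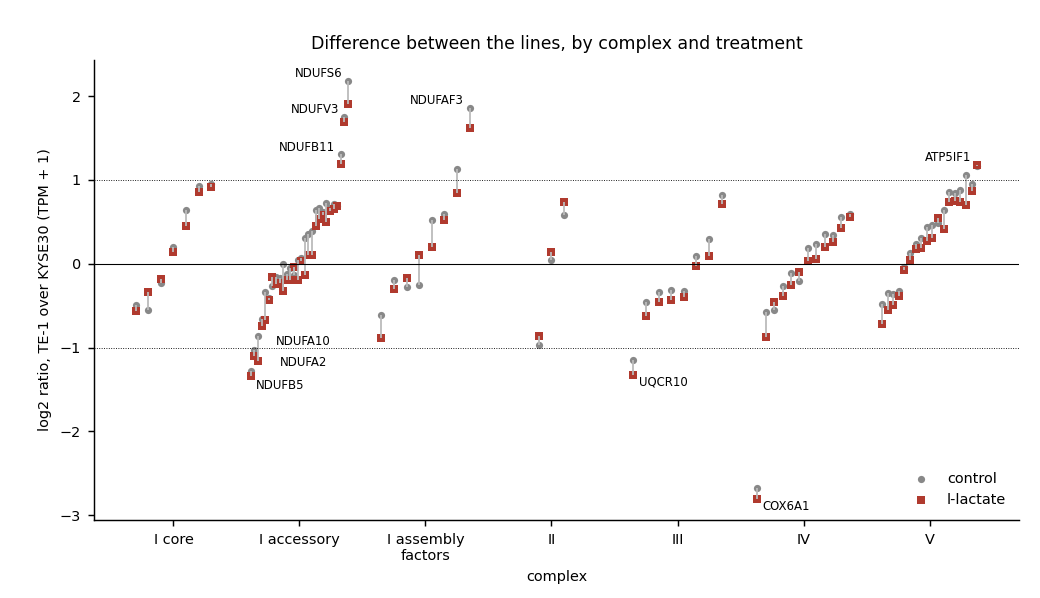
log2 ratio of TE-1 over KYSE30 (y axis, from TPM + 1) for each of 84 genes, by complex, with the control pair as grey circles and the l-lactate pair as red squares joined by a line, and dotted lines at the size limit of 1. Named genes were called by limma, and COX6A1 lies apart at -2.68 and -2.81.

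By complex, the genes did not lean one way. In complex V 12 of 18 genes were higher in TE-1 and 4 higher in KYSE30 at an adjusted p of at most 0.05 (limma), with a median log2 ratio of 0.37, where all genes had 35.8% and 37.1%. In complex III 2 of 8 were higher in TE-1 and 5 higher in KYSE30, with a median of -0.37, UQCRC1 (0.77 ± 0.08), a large core subunit, and UQCRQ (0.20 ± 0.07) being the 2. The medians were 0.17 for the 7 core subunits of complex I, -0.01 for 28 accessory subunits, 0.14 for 8 assembly factors, 0.10 for 3 genes of complex II and -0.02 for 12 of complex IV. Over the 86 genes the median was 0.10 (0.20 in the control pair and 0.08 in the l-lactate pair), against -0.02 over all genes. The summed TPM of the 84 genes was 14.2% higher in TE-1 than in KYSE30 among the controls and 5.53% higher among the l-lactate libraries.

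Genes of the same pathway outside the list were read beside these. Cytochrome c (CYCS) stood at 343, 460, 754 and 850 TPM, and HCCS, the enzyme that attaches its heme, at 34.2, 37.2, 142 and 141 TPM, and both were called higher in TE-1 (log2 ratios of 1.01 ± 0.07 and 1.96 ± 0.09). CYC1, the cytochrome of complex III, had a log2 ratio of -0.24 ± 0.10 and was not called. Of 49 assembly factors of all complexes, 46 were tested, 11 were called higher in TE-1 and 4 higher in KYSE30, where all genes had 16.8% and 19.3%. TTC19, an assembly factor of complex III, was at 130 and 120 TPM in KYSE30 and 18.8 and 20.4 TPM in TE-1. ATPAF2, a chaperone of ATP synthase, was at 90.8 and 93.7 TPM against 21.4 and 22.4 TPM. COA6, a copper-related factor of complex IV, went the other way, at 65.5 and 73.6 TPM against 255 and 249 TPM. Of 13 regulators of mitochondrial gene expression 10 were tested and 2 were called higher in TE-1, against the same 16.8% of all genes. PPARGC1A, a coactivator of mitochondrial biogenesis, was not listed in KYSE30 and stood at 10.97 and 10.63 TPM in TE-1. POLRMT, the mitochondrial RNA polymerase, had a log2 ratio of 1.04 ± 0.11. Of the 13 mitochondrially encoded subunits 0 were listed, and the tables used here held no row on the mitochondrial chromosome.

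With l-lactate, 0 of the 86 genes were called by limma at an adjusted p of at most 0.05, against 5 of 10299 genes (0.0485%). At an unadjusted p under 0.05 there were 14 of 86, against 8.94% of all genes, and no other tool was run. No gene of the 86 reached a mean log2 ratio of 0.5 in size, against 485 of 10299 genes over all. The 86 genes had a median level of 252 TPM, against 26.9 TPM over all genes, and the part of level was not tested. The mean over the lines hid a difference in sign. In TE-1, 65 of 86 genes were lower with l-lactate (all genes 40.2%), with a median log2 ratio of -0.06 against 0.02 over all genes. In KYSE30, 31 of 86 were lower (all genes 46.2%), with a median of 0.03 against 0 over all genes. In 39 genes the value was higher with l-lactate in KYSE30 and lower in TE-1, in 5 it was the reverse, and over all genes these counts were 1788 and 2323. Higher in both lines were 16 of 86 (all genes 29%), and lower in both were 26 of 86 (all genes 20.8%). These counts take any size of difference, in libraries without repeats.

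The summed TPM of the 84 genes went from 26763 to 27361 in KYSE30, 2.23% higher with l-lactate, and from 30574 to 28873 in TE-1, a change of -5.56%. Their 95% intervals, 26648 to 26880 and 27242 to 27480 in KYSE30 and 30469 to 30679 and 28760 to 28986 in TE-1, cover counting error only and did not overlap within a line. By complex the TE-1 sum differed by -9.81% for the assembly factors of complex I, -8.41% for complex III, -6.27% for the accessory subunits of complex I, -5.63% for complex V and -4.26% for complex IV. It was 4.37% higher for complex II and 1.71% higher for the core subunits of complex I, whose value includes the PTPMT1 sites. With size factors from the median of ratios in place of TPM the median in TE-1 was -0.10 and that in KYSE30 0.02, with 74 and 33 of 86 genes lower. This scaling moves the TE-1 ratio of every gene down. The median over all genes in TE-1 went from 0.02 to 0, and in KYSE30 it was 0 with both. How many of all genes were lower in TE-1 with this scaling was not counted, so the higher count has no share over all genes beside it.

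Outside the list, but not among the 84 genes, a short distance to the stop codon went with lower values in TE-1 with l-lactate. Among genes outside the list, 753 of 1330 with a main site at most 200 nt past the stop codon (56.6%) were lower in TE-1 with l-lactate, against 36.4% of 7881 genes with a longer distance. Among the 84 genes the same counts were 52 of 69 (75.4%) and 12 of 15 (80%), with a median log2 ratio of -0.058 in both classes. In KYSE30 they were 47.7 and 45.9% outside the list and 31.9 and 53.3% within it. The TE-1 control library was also the deepest of the 4. The part of distance and depth in the result was not tested.

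Genes with a mean of at least 10 TPM and the same sign in both lines were ranked by the smaller of the 2 within-line log2 ratios, not by their mean. By this measure the largest upward differences were those of UQCRFS1, NDUFAF6, NDUFAF4 and NDUFS1. UQCRFS1, the Rieske iron-sulfur protein of complex III, went from 145 to 182 TPM in KYSE30 and from 116 to 138 TPM in TE-1. Its mean log2 ratio was 0.29 ± 0.07 (limma adjusted p = 0.48), and of the 86 genes it had the lowest p. NDUFAF4 went from 42.8 to 58.5 TPM and from 94.8 to 106 TPM, and NDUFAF6 from 28.3 to 32.8 TPM and from 23.2 to 29.0 TPM. NDUFS1, the largest core subunit of complex I, went from 82.6 to 102 TPM and from 129 to 140 TPM. By the same measure the largest downward differences were those of NDUFA7, NDUFB2 and NDUFA10, accessory subunits of complex I, and of ATP5MC2. NDUFA7 went from 109 to 94.1 TPM and from 68.9 to 56.0 TPM, a mean log2 ratio of -0.25 ± 0.08 (limma adjusted p = 0.51). NDUFB2 went from 268 to 234 TPM and from 432 to 376 TPM, with log2 ratios of -0.20 in both lines. NDUFA10 went from 112 to 97.8 TPM and from 54.0 to 45.0 TPM. None of these 8 passed the test.

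**Figure D4:**
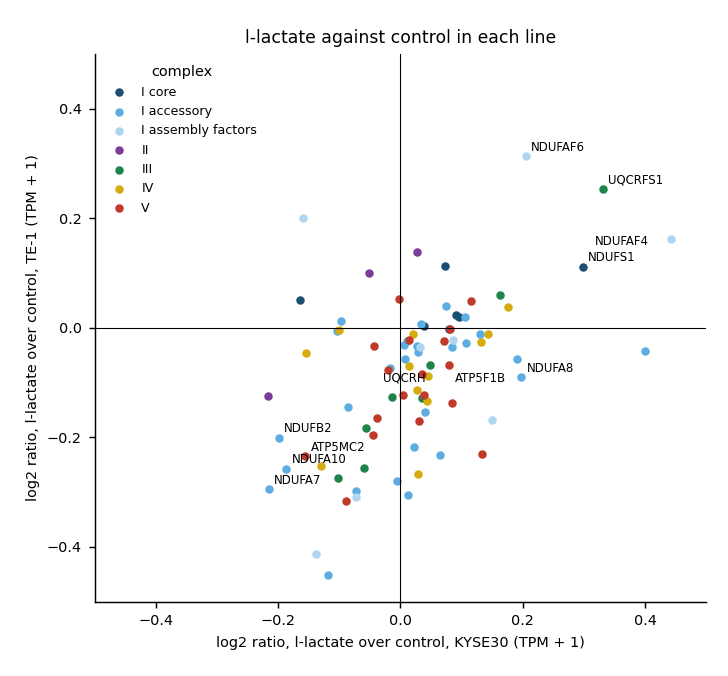
log2 ratio of l-lactate over control in KYSE30 (x axis) against that in TE-1 (y axis), both from TPM + 1, for 84 genes coloured by complex. Most points lie below 0 on the y axis (64 of 84) and to the right of 0 on the x axis, and no point passes 0.5 in size on either axis.

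PAC use, the share of a gene's TPM at each of its PACs, could be compared in 16 of the 86 genes with at least 2 PACs of 5 TPM or more in some library. NDUFC2 and its readthrough gene are counted among the 16 with the same PACs. Between the lines 2 genes, NDUFV3 and COX7A2L, moved by at least 10 percentage points the same way in both treatments, against 26.6% of the 2668 genes compared. With l-lactate 0 genes moved that far in both lines, against 2.89% of all genes.

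NDUFV3 had 4 PACs, the first in an intron and 3 in the last 3′ UTR, at 79, 648 and 2875 nt past the stop codon. The proximal PAS in the 3′ UTR (pPAS), a PAC at chr21:42909099-42909116 on the plus strand, held 51.1% of the TPM in KYSE30 control (95% Wilson interval 45.2 to 56.9%), 44.4% in KYSE30 l-lactate (38.6 to 50.4%), 66.5% in TE-1 control (64.0 to 69.0%) and 62.2% in TE-1 l-lactate (59.2 to 65.1%). The distal PAS (dPAS) held 13.7, 21.5, 9.19 and 10.4%. The TE-1 libraries thus lay higher at the pPAS than both KYSE30 libraries. The 30 bases up to the 3 sites in the 3′ UTR, as dominant in TE-1, are given with the signal in capitals.
NDUFV3 site 79 nt past the stop codon: agtgcaaaAATAAAatccactcaagagtca
NDUFV3 site 648 nt past the stop codon: cgcATTAAActgattatcagctgagtatca
NDUFV3 site 2875 nt past the stop codon: gaaattcccttaatATTAAAatgaacatga
The first carries AATAAA and the other two ATTAAA.

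In COX7A2L the main PAC lay in the 3′ UTR, and a second PAC, 13778 nt past the end of the MANE Select transcript and in an intron of a longer one, was listed only in KYSE30, with no signal of either form before it. It held 20.2% (48 tags) and 10.7% (22 tags) there. In NDUFA10 a PAC far upstream was not listed in KYSE30 control and held 2.28, 7.84 and 13.4% in the other libraries, and a dPAS was listed only in KYSE30 with 3.14 and 3.28%. In NDUFS1 the pPAS held 82.1, 85.1, 76.4 and 79.3%, with its end at chr2:206123909-206123938 on the minus strand lacking both signals.
NDUFS1 pPAS: tgtgacgaacataaagagatccttaaatta
For NDUFS3 the PAC at its own 3′ end held 56.3, 55.0, 48.6 and 46.9%, the rest being at the PTPMT1 sites.

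By the smaller of the differences in the lines, NDUFA5 had the largest l-lactate difference that went the same way in both. Its dPAS, 1090 nt past the stop codon, went from 82.7 to 88.1% in KYSE30 and from 76.6 to 82.4% in TE-1, a difference of 5.36 and 5.80 percentage points, under the limit of 10. The Wilson intervals, which cover counting error only, were 80.5 to 84.8% and 86.2 to 89.7% in KYSE30 and 74.8 to 78.4% and 80.5 to 84.2% in TE-1, without overlap within a line. The pPAS, 61 nt past the stop codon, went from 28.1 to 22.2 TPM and from 48.9 to 35.3 TPM, and the dPAS from 135 to 164 TPM and from 160 to 166 TPM. The dPAS ends at chr7:123541029-123541058 on the minus strand, with its signal in capitals.
NDUFA5 dPAS: AATAAAattacatgtgttttcgccttccta

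**Figure D5:**
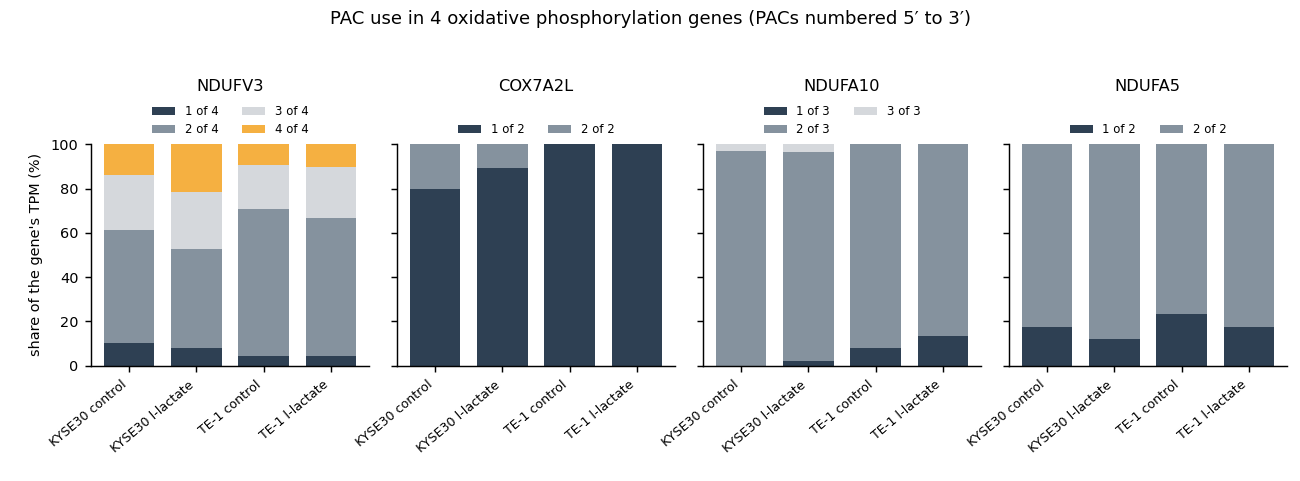
Share of each gene's summed TPM (y axis, %) at each of its PACs, numbered from 5′ to 3′, in the 4 libraries. The second NDUFV3 PAC is larger in TE-1, the second COX7A2L PAC is listed only in KYSE30, the NDUFA10 shares at the outer PACs are small, and the second NDUFA5 PAC is larger with l-lactate in both lines.

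The dominant site within a PAC seldom moved among PACs of at least 5 TPM in both libraries compared. Past 24 nt, between the lines, it moved in 1 of 95 PACs in the controls (all PACs 2.1%) and in 0 of 96 with l-lactate (2.03%). With l-lactate it moved in 0 of 99 PACs in KYSE30 (1.46%) and in 1 of 97 in TE-1 (1.25%). In each case the PAC was that of SDHD, where the dominant site of TE-1 control lay 62 nt upstream of the other libraries. It rested on 41 of 112 tags there and on 27 of 83 tags in TE-1 l-lactate. The ends at chr11:112095675-112095704 and chr11:112095737-112095766 on the plus strand each have an AATAAA of their own.
SDHD upstream site: aactataagtAATAAAttgttattttcgca
SDHD downstream site: atgaaaataatttttttaAATAAAatgtta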

How the data were processed

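Each deposited table listed, for 1 library, the PACs with their TPM and the TPM of the dominant site. In the deposited tables these TPM are RPM values: tags of a PAC scaled to the total tags of the library, with no length correction. The authors trimmed reads with FASTX-Toolkit, aligned them with HISAT2 to GRCh38 (GRCh38.p14 in the submitters' processing notes), called sites with CAGEr, dropped low ones and joined near ones into PACs. All TPM came to whole tags within 0.0011 of the total given, so depth is known, but count tests were not run on them. PACs were assigned to GENCODE v44 genes by the same-strand span and kept in all libraries if the dominant site was inside in at least 1. Summed TPM per gene was tested as log2(TPM + 1) with limma 3.58.1 (R 4.3.3), line plus treatment, a variance trend, and Benjamini-Hochberg adjustment over genes with a mean of at least 2 TPM. A fold change on this scale understates that of low genes. The limma step was tested on simulated data with the same dispersion for every gene. The real genes differ in this, so that test does not measure error rates in these libraries. Intervals are Wilson at 95% and cover counting error only, as tags are not independent molecules. Groups followed the titles. Genes and lists were chosen with earlier results of these data known. Named were the 2 highest genes per complex, up to 8 called per line, the 4 widest rises and falls with l-lactate, those with the widest PAC use changes, paralog families and genes without a PAC. Alternatives were other pseudocounts, filters, scalings and PAC assignments. Sequences are the GRCh38 reference. Sites on chromosome 8 were counted in the signal shares, but no sequence from that chromosome is printed.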

Additional observations from a re-analysis of the deposited data

Results flagged for a closer look

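The summed TPM of the 84 genes moved in opposite directions with l-lactate in the lines, with log2 ratios of 0.032 in KYSE30 and -0.083 in TE-1. The difference was not tested, since each line had 1 library per treatment. In 3 of the 84 genes the counting intervals lay above 0 in both lines, in 9 below 0 in both, and in 3 on opposite sides of 0. Over all genes this was not counted, and none of these differences was tested either. The 3 genes with intervals on opposite sides were NDUFA8, UQCRH and ATP5F1B. NDUFA8, an accessory subunit of complex I, had log2 ratios of 0.20 in KYSE30 and -0.090 in TE-1, with 199, 228, 261 and 245 TPM in KYSE30 control, KYSE30 l-lactate, TE-1 control and TE-1 l-lactate. UQCRH had log2 ratios of 0.049 and -0.068, and ATP5F1B of 0.079 and -0.069.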

How the results depend on the processing

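Of the 10 genes called between the lines, all 10 were called again with a pseudocount of 0.5, no filter, a mean of at least 10 TPM, no variance trend, 3′ UTR PACs alone, spans extended by 500 nt and either scaling. With a pseudocount of 5 NDUFA2 was lost, and with PACs in the span of 1 gene alone the calls higher in KYSE30 fell to 3, since COX6A1 and NDUFB5 then had no PAC left. With l-lactate 0 genes were called under every setting run. Over all genes 94 of 10299 were called with a pseudocount of 5 and 29 of 7832 at a mean of at least 10 TPM. With no filter, no trend or median-of-ratios factors 0 were called over all genes. Between the lines at a mean of at least 10 TPM, 1147 and 1193 of the 7832 genes tested were called higher in TE-1 and KYSE30. Among the 83 listed genes with that mean, 5 and 5 were called. The median log2 ratio between the lines was 0.20 in the control libraries alone. The median with l-lactate was 0.03 in KYSE30 alone and -0.06 in TE-1 alone. PAC use differed between the lines in 6 of 16 genes at 5 percentage points and in 0 at 20. It differed in 1 (NDUFV3) of 9 with PACs of at least 10 TPM and of 13 with PACs listed in all 4 libraries. With l-lactate it differed in 1 of 16 genes, NDUFA5, at 5 percentage points. Shares over all genes at these settings were not counted. Dominant sites moved by any length in 6 PACs among those of at least 5 TPM in both libraries compared. Between the lines these were 4.21% of PACs in the controls and 5.21% with l-lactate, against 6.21 and 6.39% of all PACs. With l-lactate they were 2.02% in KYSE30 and 1.03% in TE-1, against 5.11 and 4.53%. The cause was not tested where none is given. The trimmed mean of M values and the setting that left out rows with the dominant site past the gene end, in which COX6A1 is at 0 in TE-1, were chosen after seeing the data. The planned edgeR test and edgeR scaling were not run, since count tests were not used on TPM. The limma fit itself compares treatments within each line. Pairing beyond this block on line was not possible, since each line and treatment had 1 library and so no replicate numbers to pair. PACs under about 1 TPM are not listed, which limits what can be said of genes and sites without a PAC.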
